A study of Mus musculus with 16 samples.

Results

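Superoxide and peroxide removing enzymes are described here as 10 genes: Sod1, Sod2, Cat, Gpx1, Gpx4, Prdx1, Prdx3, Prdx5, Prdx6 and Txn2. Their products clear superoxide and hydrogen or lipid peroxides, except that of Txn2, which supplies electrons to Prdx3. The 10 genes were taken by gene name from a table of 55487 mouse genes after its Ensembl identifiers had been matched to GRCm38 symbols. All 10 were found and all 10 were among the 14553 genes with enough reads to test. The table covers liver RNA-seq of wild type C57BL/6J mice aged 12 weeks, with 4 libraries each from sustained hypoxia, intermittent hypoxia, overlap hypoxia (both exposures combined, per the series title) and room air. All 4 groups carry the same genotype label, and room air is the only group labelled as unexposed. How low the oxygen was, how long the exposures lasted and when livers were taken is not stated in the labels used.

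Superoxide is formed when electrons leak from the mitochondrial respiratory chain or are passed to oxygen by oxidases. Superoxide dismutases turn it into hydrogen peroxide, which catalase breaks down in peroxisomes, glutathione peroxidases reduce with glutathione, and peroxiredoxins reduce with electrons from thioredoxin. The liver is rich in catalase and in the glutathione peroxidase Gpx1, and hepatocytes hold abundant mitochondria and peroxisomes.

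In intermittent hypoxia 5 of the 10 genes fell against room air: Gpx1, Gpx4, Prdx1, Prdx5 and Prdx3. Of all genes tested there, 37.1% passed, and 18.3% were lower. The smallest of these changes was in Prdx3, which fell by 27.4%, and the largest in Gpx1, which fell by 51.6%. Sod2 rose by 27.9%, and Sod1, Cat, Prdx6 and Txn2 did not pass the test. In overlap hypoxia, where 6.29% of all genes passed, Gpx4 was the 1 member that passed and fell by 44.5%. Gpx1 and Prdx1 had log2 fold changes of −0.67 and −0.50 there and missed the threshold. Every overlap library lay below every room air library for both, for Prdx1 by little (1232 against 1239 CPM). In sustained hypoxia 0.0481% of all genes passed and edgeR called 0 of the 10. Sod2 (log2 fold change 0.39, 95% interval 0.10 to 0.68) and Txn2 (0.30, 0.04 to 0.56) had an unadjusted p under 0.05, as had 1672 of all 14553 genes. The intermittent libraries also held the most ribosomal RNA. With that share as a covariate no member passed in any comparison. The log2 fold changes were then −0.82 for Prdx1 and −0.77 for Gpx1 in intermittent hypoxia and −0.72 for Gpx4 in overlap hypoxia. In intermittent hypoxia all the genes that fell had smaller falls with the covariate, and that of Gpx4 shrank the most. The calls over all genes in intermittent hypoxia numbered 77, against 5404 without the covariate.

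Gpx1 and Gpx4 are selenoproteins, in which a UGA codon, TGA in DNA, is read as selenocysteine at the active site. Their coding sequences around that codon are shown because these genes had the lowest fold changes in overlap hypoxia and are among the lowest in intermittent hypoxia. Each line gives GRCm38 coding sequence of GENCODE M21 with introns removed, 30 bases on each side, and the capitals mark the selenocysteine codon. The codon lies at chr9:108339451-108339453 on the plus strand in Gpx1 (codon 47 of the transcript used) and at chr10:80054737-80054739 on the plus strand in Gpx4 (codon 129 of the transcript used).
Gpx1: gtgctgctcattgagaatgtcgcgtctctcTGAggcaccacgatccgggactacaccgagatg
Gpx4: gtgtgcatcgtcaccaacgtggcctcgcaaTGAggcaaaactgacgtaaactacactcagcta
Of the 63 bases compared, 35 were identical.

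The 250 bases before the annotated start are shown for Prdx1, Gpx1 and Prdx5, which fell together in intermittent hypoxia, and for Sod1, which did not pass the test there. They are RefSeq sequences of build GRCm38.p6, read 5′ to 3′ along the gene. Capitals mark matches on either strand to the antioxidant response element core TGACNNNGC, to the AP-1 site TGACTCA and to the hypoxia response element cores ACGTG and GCGTG. The windows are chr4:116685349-116685598 on the plus strand for Prdx1, chr9:108338830-108339079 on the plus strand for Gpx1, chr19:6910107-6910356 on the minus strand for Prdx5 and chr16:90220512-90220761 on the plus strand for Sod1.
Prdx1: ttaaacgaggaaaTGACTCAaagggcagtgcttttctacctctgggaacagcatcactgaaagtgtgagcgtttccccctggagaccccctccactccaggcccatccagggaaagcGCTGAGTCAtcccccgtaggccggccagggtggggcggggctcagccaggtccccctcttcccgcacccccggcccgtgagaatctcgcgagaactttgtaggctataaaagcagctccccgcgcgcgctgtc
Gpx1: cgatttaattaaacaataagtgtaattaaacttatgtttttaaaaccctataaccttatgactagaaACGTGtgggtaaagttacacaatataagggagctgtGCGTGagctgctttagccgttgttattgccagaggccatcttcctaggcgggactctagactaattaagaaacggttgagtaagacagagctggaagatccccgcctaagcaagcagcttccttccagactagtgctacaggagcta
Prdx5: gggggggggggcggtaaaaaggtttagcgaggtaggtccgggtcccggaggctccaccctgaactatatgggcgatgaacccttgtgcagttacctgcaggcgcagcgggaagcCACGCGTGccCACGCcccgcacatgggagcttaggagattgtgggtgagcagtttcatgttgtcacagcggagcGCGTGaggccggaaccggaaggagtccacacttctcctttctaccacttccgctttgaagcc
Sod1: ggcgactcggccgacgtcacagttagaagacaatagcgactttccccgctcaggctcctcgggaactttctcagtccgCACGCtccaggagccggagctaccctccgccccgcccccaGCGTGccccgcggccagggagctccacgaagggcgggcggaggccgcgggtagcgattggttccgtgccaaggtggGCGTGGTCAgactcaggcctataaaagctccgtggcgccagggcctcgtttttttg
Prdx1 had 1 antioxidant response element core, whose match contains the second of its 2 AP-1 sites and begins 133 bases before the start. Sod1 had the same core 56 bases before the start, overlapping a GCGTG match. Gpx1 had 1 ACGTG and 1 GCGTG match, and Prdx5 had 4 GCGTG matches, 2 of which overlap. Among the 9 members with a promoter in the RefSeq table, TGACNNNGC was found in Prdx1 and Sod1, TGACTCA in Prdx1, ACGTG in Gpx1, and GCGTG in Gpx1, Gpx4, Prdx3, Prdx5, Sod1 and Sod2. Over all 32851 windows of that length in the table, 10.2% held TGACNNNGC, 4.46% TGACTCA, 16.6% ACGTG and 28.2% GCGTG. Prdx6 is the member not matched. A match is a description of letters and not a bound site, and the genes that fell held no one motif in common.

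Expected counts summed to between 10940275 and 64789635 per library. The lowest total was that of overlap replicate 3, and the other overlap libraries had at least 35122345. The extraction text speaks of retinas although every library is labelled liver, and marker genes were read to check this. The hepatocyte list, of which 5 of 6 symbols were found, summed to between 52600 and 85190 CPM (counts scaled to a common library total) in every library, whereas the photoreceptor list summed to between 2.97 and 10.8 CPM, with Rcvrn at 0 throughout. The ribosomal RNA share of counts was 1.55 to 2.77% in sustained hypoxia, 18.5 to 34.8% in intermittent hypoxia, 2.54 to 16.8% in overlap hypoxia and 1.57 to 10.2% in room air. Mitochondrially encoded genes took 6.23 to 11.7% in intermittent hypoxia and 1.18 to 2.75% in room air, and major urinary protein genes took 2.83 to 10.4% and 14.7 to 25.4%. The 4 intermittent libraries thus lay outside the range of the other 12 in ribosomal RNA share, so that exposure and this share cannot be told apart. Each library has its own number in the labels, but nothing says that they came from separate animals, so the p-values reflect how much these libraries vary, which may be technical.

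**Figure D1:**
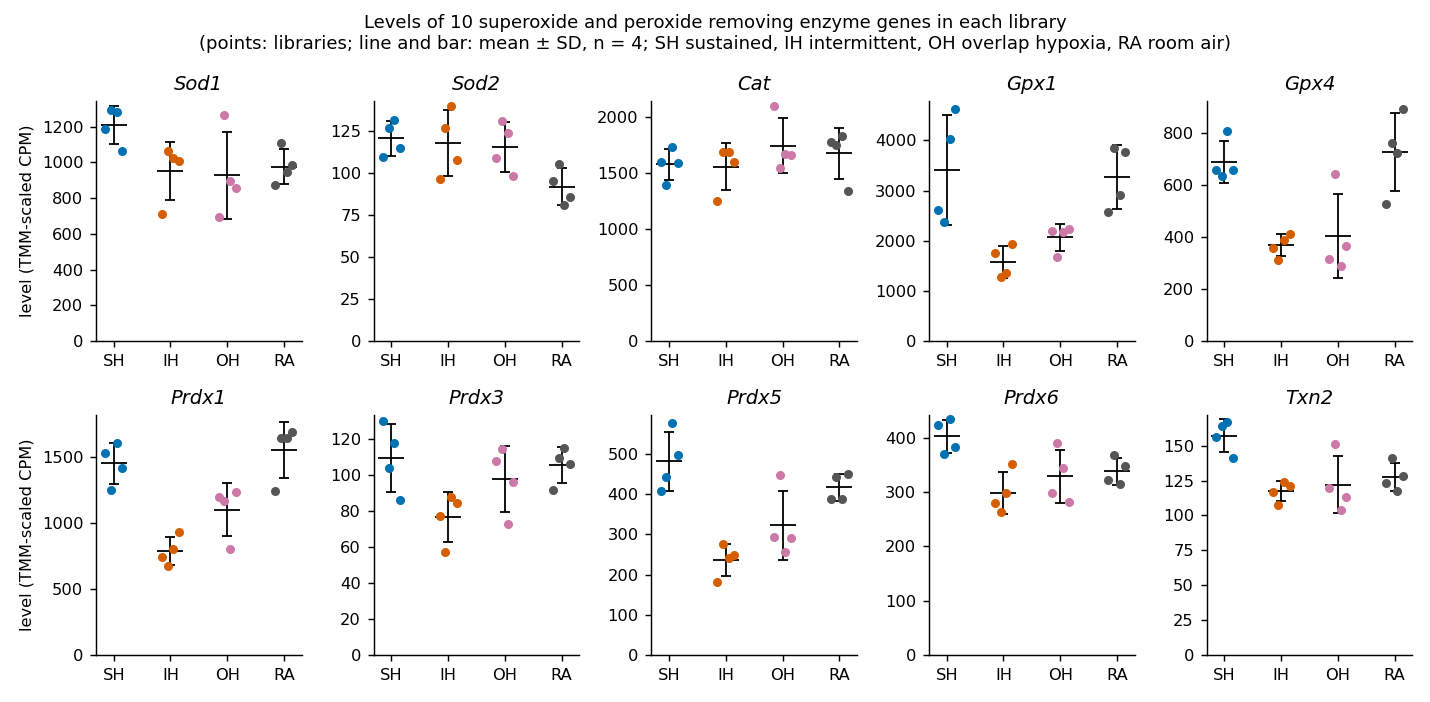
Level of each of the 10 genes in each library, in CPM scaled by the TMM method, with 1 panel per gene and the groups sustained (SH), intermittent (IH) and overlap (OH) hypoxia and room air (RA); points are libraries, and the line and bar give the mean ± SD of 4. The intermittent libraries sit below all 4 room air libraries for Gpx1, Gpx4, Prdx1, Prdx3 and Prdx5, for Prdx3 by little (88.0 against 91.9 CPM). Those of Sod1 and Cat overlap the room air libraries, with intermittent replicate 1 below them all. The share of all genes that separate in this way is not given here.

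Sod1 encodes the cytosolic copper and zinc superoxide dismutase (ENSMUSG00000022982, chr16:90220754-90226329, plus strand). Its level, in CPM after TMM scaling for library composition as for all levels below, was 1190, 1291, 1285 and 1065 in sustained hypoxia, 712, 1065, 1026 and 1007 in intermittent hypoxia, 695, 1268, 896 and 856 in overlap hypoxia, and 874, 1107, 944 and 984 in room air. Every hypoxia group overlapped room air. Against room air the log2 fold change was 0.31 (sustained), −0.04 (intermittent) and −0.07 (overlap), with standard errors of 0.17, and none passed edgeR's quasi-likelihood test at an adjusted p under 0.05 (adjusted p = 0.516, 0.886 and 0.847). For intermittent hypoxia the 95% interval of −0.39 to 0.31 does not exclude a change of that size either way. With offsets for transcript length and GC content the intermittent value turned to 0.40 (edgeR adjusted p = 0.033). Sod1 had the shortest principal transcript of the 10 genes, 641 bases.

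Sod2 encodes the manganese superoxide dismutase of the mitochondrial matrix (ENSMUSG00000006818, chr17:13006846-13040063, plus strand), and its principal transcript, at 5861 bases, was the longest of the 10. It had 109, 126, 131 and 115 CPM in sustained hypoxia, 96.1, 127, 140 and 107 CPM in intermittent hypoxia, 109, 131, 124 and 98.0 CPM in overlap hypoxia, and 95.2, 105, 81.1 and 85.6 CPM in room air. All 4 sustained libraries lay above all 4 room air libraries, whereas 1 intermittent and 1 overlap library lay within the room air range. Sod2 rose in intermittent hypoxia with a log2 fold change of 0.36 ± 0.14 (SE) and an edgeR adjusted p of 0.0489. In sustained and overlap hypoxia the log2 fold changes were 0.39 and 0.33, with edgeR adjusted p of 0.282 and 0.157. The intermittent call was lost without any one of 12 libraries (room air 1, 3 or 4, any sustained library, intermittent 2 or 3, or overlap 1, 3 or 4), with an edgeR adjusted p of up to 0.157. About 21.0% of the 50-base stretches of its exons also occur in other genes, so part of its count depends on how shared reads were divided.

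Cat encodes catalase (ENSMUSG00000027187, chr2:103453849-103485160, minus strand). It had 1593, 1394, 1729 and 1586 CPM in sustained hypoxia, 1245, 1685, 1688 and 1601 CPM in intermittent hypoxia, 2100, 1543, 1666 and 1661 CPM in overlap hypoxia, and 1772, 1752, 1832 and 1340 CPM in room air. The groups overlapped throughout. The log2 fold changes against room air were −0.09, −0.11 and 0.06 with 95% intervals between −0.41 and 0.37, and the edgeR adjusted p was 0.881, 0.604 and 0.862.

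Gpx1 encodes the main glutathione peroxidase of cytosol and mitochondria (ENSMUSG00000063856, chr9:108338903-108340343, plus strand). Its level was 2607, 2366, 4023 and 4620 CPM in sustained hypoxia, 1762, 1277, 1359 and 1944 CPM in intermittent hypoxia, 2186, 1667, 2166 and 2240 CPM in overlap hypoxia, and 2563, 3854, 2908 and 3777 CPM in room air. Every intermittent and every overlap library lay below every room air library. The sustained libraries stood on both sides of the room air mean and spread the most, at 3404 ± 1091 CPM against 3276 ± 640 CPM in room air (SD, n = 4 each). In intermittent hypoxia Gpx1 fell by 1.05 ± 0.21 (SE) on the log2 scale, with an edgeR adjusted p of 0.000723. In overlap hypoxia the log2 fold change was −0.67 ± 0.21, which did not pass (edgeR adjusted p = 0.0607); it passed with DESeq2 (adjusted p = 0.0232), without the filter on low counts (edgeR adjusted p = 0.043) and without room air replicate 1 (edgeR adjusted p = 0.0401). In sustained hypoxia it was 0.06 ± 0.21 (edgeR adjusted p = 0.952).

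Gpx4 encodes the glutathione peroxidase that reduces lipid peroxides in membranes, the step that holds back ferroptosis (ENSMUSG00000075706, chr10:80047166-80056439, plus strand). It had 658, 633, 807 and 656 CPM in sustained hypoxia, 358, 312.8, 389 and 412 CPM in intermittent hypoxia, 315.2, 640, 288 and 367 CPM in overlap hypoxia, and 527, 759, 724 and 890 CPM in room air. All intermittent libraries and 3 of the 4 overlap libraries lay below the lowest room air library, and overlap replicate 2 lay inside the room air range. Gpx4 fell in intermittent hypoxia by 0.98 ± 0.21 (SE) on the log2 scale (edgeR adjusted p = 0.00118) and in overlap hypoxia by 0.85 ± 0.21 (edgeR adjusted p = 0.0222). In overlap hypoxia the call was lost without any one of room air replicates 2, 3 or 4 or overlap replicates 1 or 3, with an edgeR adjusted p of up to 0.0847. Without overlap replicate 2 the log2 fold change there was −1.16 (edgeR adjusted p = 0.00187). Exons of Gpx4 share 34.7% of their 50-base stretches with other genes, mainly the pseudogene Gpx4-ps2, whose own expected count was 2.46 to 11% of that of Gpx4.

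Prdx1 encodes an abundant cytosolic peroxiredoxin, which passes electrons from thioredoxin to hydrogen peroxide (ENSMUSG00000028691, chr4:116685544-116700822, plus strand). It had 1529, 1249, 1610 and 1415 CPM in sustained hypoxia, 745, 674, 804 and 930 CPM in intermittent hypoxia, 1198, 1170, 799 and 1232 CPM in overlap hypoxia, and 1239, 1642, 1647 and 1691 CPM in room air. The intermittent and overlap libraries all lay below the lowest room air library, the nearest overlap library by little. Prdx1 fell in intermittent hypoxia by 0.98 ± 0.16 (SE) on the log2 scale, or 49.3%, with the lowest edgeR adjusted p of the 10 genes, 0.000119. In overlap hypoxia the log2 fold change was −0.50 ± 0.16 and did not pass (edgeR adjusted p = 0.0620); it passed with DESeq2 (adjusted p = 0.0220), with limma-voom (adjusted p = 0.0299) and without room air replicate 1 (edgeR adjusted p = 0.0342). In sustained hypoxia it was −0.10 ± 0.16 (edgeR adjusted p = 0.870).

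Prdx5 encodes an atypical peroxiredoxin found in mitochondria, peroxisomes and cytosol (ENSMUSG00000024953, chr19:6906697-6910106, minus strand). Its level was 409, 443, 579 and 499 CPM in sustained hypoxia, 180, 276, 242 and 248 CPM in intermittent hypoxia, 294, 449, 256 and 292 CPM in overlap hypoxia, and 388, 442, 390 and 451 CPM in room air. The intermittent libraries lay below all room air libraries, as did 3 of the 4 overlap libraries, while overlap replicate 2 lay within the room air range. Prdx5 fell in intermittent hypoxia by 0.82 ± 0.17 (SE) on the log2 scale (edgeR adjusted p = 0.000964). The log2 fold change was −0.37 ± 0.17 in overlap hypoxia (edgeR adjusted p = 0.198, and 0.0280 without overlap replicate 2) and 0.21 ± 0.17 in sustained hypoxia (edgeR adjusted p = 0.706). Exons of Trmt112 on the opposite strand cover 19.1% of its exons, and since no source used here says whether counting used strand, reads of that stretch cannot be assigned; Trmt112 itself had 2.87 to 8.8% of the count of Prdx5.

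Prdx3, the peroxiredoxin of the mitochondrial matrix (ENSMUSG00000024997, chr19:60864051-60874556, minus strand), had 130, 104, 118 and 86.4 CPM in sustained hypoxia, 77.2, 57.1, 88.0 and 84.7 CPM in intermittent hypoxia, 108, 115, 73.0 and 96.3 CPM in overlap hypoxia, and 91.9, 110, 115 and 106 CPM in room air. The highest intermittent library lay just below the lowest room air library. Prdx3 fell in intermittent hypoxia by 0.46 ± 0.16 (SE) on the log2 scale (edgeR adjusted p = 0.0311). The call was lost without room air replicate 2, 3 or 4 or intermittent replicate 2, with an edgeR adjusted p of up to 0.125, and with offsets for length and GC content the value was −0.0040 (edgeR adjusted p = 0.986). In sustained and overlap hypoxia its log2 fold changes were 0.05 and −0.11, with edgeR adjusted p of 0.942 and 0.756.

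Prdx6, a peroxiredoxin that reduces phospholipid peroxides and draws on glutathione (ENSMUSG00000026701, chr1:161240112-161251219, minus strand), ranged from 371 to 434 CPM in sustained, 263 to 351 CPM in intermittent and 282 to 390 CPM in overlap hypoxia, and from 314.1 to 369 CPM in room air. Txn2, the mitochondrial thioredoxin that supplies electrons to Prdx3 (ENSMUSG00000005354, chr15:77915047-77929006, minus strand), ranged from 141 to 167 CPM in sustained, 108 to 124 CPM in intermittent and 104 to 151 CPM in overlap hypoxia, and from 117 to 141 CPM in room air. The sustained group had the highest mean for both genes, and for Prdx6 all 4 sustained libraries lay above room air. Their log2 fold changes in sustained hypoxia were 0.25 and 0.30, with edgeR adjusted p of 0.484 and 0.348. In intermittent hypoxia they were −0.18 and −0.12 (edgeR adjusted p = 0.292 and 0.482), and in overlap hypoxia −0.04 and −0.06 (edgeR adjusted p = 0.892 and 0.813).

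**Figure D2:**
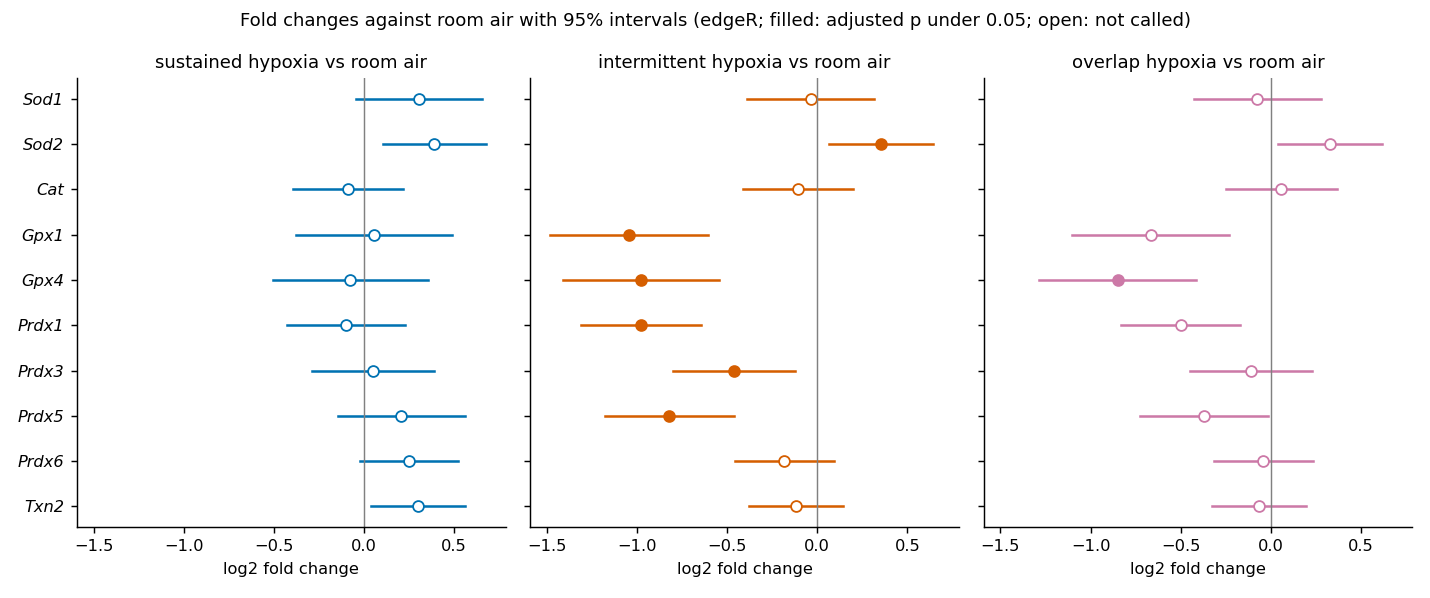
Log2 fold change of each gene against room air in sustained, intermittent and overlap hypoxia, with 95% intervals from edgeR; filled points had an adjusted p under 0.05. The 3 panels share the room air libraries. The 6 filled points in intermittent hypoxia are Sod2 above 0 and Gpx1, Gpx4, Prdx1, Prdx3 and Prdx5 below it, and the 1 in overlap hypoxia is Gpx4.

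Counted over the set, intermittent hypoxia against room air had 1 gene that rose and 5 that fell, and the median log2 fold change of the 10 was −0.32. Of all 14553 genes tested there, 37.1% passed, 18.9% higher and 18.3% lower, with a median of 0.03. In overlap hypoxia 1 of 10 fell, where 6.29% of all genes passed and 2.89% fell. An unadjusted p under 0.05 was found for 5 of the 10 and for 3320 of all 14553 genes. The medians were −0.09 over the set and 0.03 over all genes. In sustained hypoxia edgeR called 0 of 10, where 0.0481% of all genes passed. Of the 10, 2 (Sod2 and Txn2) had an unadjusted p under 0.05, as had 1672 of all 14553 genes. DESeq2 and limma-voom also called 0, where they called 1.2 and 1.7% of all genes.

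The exposures were also compared with each other. Sustained hypoxia had 7 of the 10 genes higher than intermittent hypoxia: Gpx1 (log2 difference 1.10 ± 0.21, SE), Prdx5 (1.03 ± 0.17), Gpx4 (0.90 ± 0.21), Prdx1 (0.88 ± 0.16), Prdx3 (0.51 ± 0.16), Prdx6 (0.43 ± 0.13) and Txn2 (0.42 ± 0.12), with edgeR adjusted p between 0.000168 and 0.0175. Of all genes tested there, 38.4% passed and 18.9% were higher in sustained hypoxia. This comparison has the same intermittent libraries as the one with room air. The Prdx3 call was lost without sustained replicate 1 or intermittent replicate 2 (edgeR adjusted p = 0.0698 and 0.0738).

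By edgeR, overlap hypoxia was called different from neither single exposure in any of the 10. Against intermittent hypoxia, where 6.15% of all genes passed, edgeR called 0 of 10. An unadjusted p under 0.05 was found for 3689 of all 14553 genes and for 3 of the 10: Prdx1 (log2 difference 0.48 ± 0.16, SE), Prdx5 (0.45 ± 0.17) and Prdx3 (0.35 ± 0.16). DESeq2 called 1 there, Prdx1 (adjusted p = 0.0367), and limma-voom called 0, where they called 10.9 and 3.39% of all genes. Without intermittent replicate 4 (adjusted p = 0.0380) or overlap replicate 3 (adjusted p = 0.0245) edgeR called Prdx1, and 9.51 and 7.52% of all genes. Against sustained hypoxia, where 0.165% of all genes passed, edgeR called 0 of 10. An unadjusted p under 0.05 was found for 7 of the 10 and for 2978 of all 14553 genes. The largest differences were in Gpx4 (−0.77 ± 0.21), Gpx1 (−0.72 ± 0.21) and Prdx5 (−0.58 ± 0.17). There DESeq2 and limma-voom called 4 genes each as lower, where they called 6.16 and 8.41% of all genes. Without overlap replicate 2 edgeR called 4 (Sod1, Gpx4, Prdx5 and Txn2), where 10.3% of all genes passed. A difference between overlap hypoxia and either single exposure was thus not shown by the edgeR test at the adjusted threshold, and the intervals do not exclude one. For Gpx4 the interval ran from −0.30 to 0.56 against intermittent hypoxia. Against sustained hypoxia it ran from −1.21 to −0.34, which lies below 0 but is not adjusted for the number of genes tested.

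Ratios of members within a library do not depend on how libraries are scaled. Gpx1 had 1.64 to 2.91 counts per count of Cat in sustained, 0.758 to 1.42 in intermittent and 1.04 to 1.35 in overlap hypoxia, against 1.45 to 2.82 in room air. Prdx5 had 0.343 to 0.468 counts per count of Sod1 in sustained, 0.236 to 0.259 in intermittent and 0.286 to 0.424 in overlap hypoxia, against 0.400 to 0.458 in room air. Both ratios were lower in every intermittent library than in every room air library, and their ranges in sustained hypoxia overlapped those of room air. Gpx4 per Sod1 was 0.490 to 0.628 in sustained, 0.294 to 0.502 in intermittent and 0.321 to 0.505 in overlap hypoxia, against 0.603 to 0.905 in room air. Prdx3 per Sod2, both in the mitochondrial matrix, was 0.754 to 1.19 in sustained, 0.451 to 0.803 in intermittent and 0.591 to 0.991 in overlap hypoxia, against 0.965 to 1.42 in room air. This pair sets a transcript of 1478 bases against one of 5861, and with offsets for length and GC content the intermittent log2 fold changes were −0.0040 for Prdx3 and 0.15 for Sod2, against −0.46 and 0.36 without them. Gpx1 per Cat and Gpx4 and Prdx5 per Sod1 were thus lower in every intermittent library than in room air, for Gpx1 by little. Each pair sets a gene that fell in intermittent hypoxia over a gene that did not fall there. These ratios therefore restate the fold changes and are no separate support for them. Gpx1 and Cat also differ in transcript length, at 1072 and 2613 bases. Summed over the 10 genes, the level was 8142 to 10880 CPM in sustained, 5573 to 6805 CPM in intermittent and 6717 to 7524 CPM in overlap hypoxia, and 7995 to 10280 CPM in room air.

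Levels of different genes were compared per kilobase of exon. In room air, per kilobase of the union of annotated exons, Gpx1 was highest at 2273 ± 444 CPM per kilobase (SD, n = 4), without overlap with the next gene. Cat (641 ± 86.2), Prdx1 (511 ± 69.6) and Gpx4 (421 ± 87.1) followed, Prdx1 overlapping both the others in range. Sod1 (246 ± 24.6) and Prdx5 (195 ± 15.7) came next without overlap, then Prdx3 (71.5 ± 6.74) and Prdx6 (70.4 ± 5.25), which overlapped, Txn2 (30.3 ± 2.39) and Sod2 (9.17 ± 1.08). In intermittent and overlap hypoxia Sod1 stood above Gpx4 in this order, at 240 ± 40.8 against 213 ± 25.0 and at 234 ± 61.1 against 233 ± 93.8 CPM per kilobase, within their spread. The place of Sod1 depends on the length used: with its principal transcript, an alternative added after seeing the data, it had 1524 ± 153 CPM per kilobase in room air and came after Gpx1 alone. The order of Cat, Prdx1 and Gpx4 depends on the length as well. Per kilobase of the longest transcript, Gpx4 (729 ± 151) came before Prdx1 (678 ± 92.3) and Cat (641 ± 86.2) in room air, within their spread. With that length Prdx6 (132 ± 9.85) stood above Prdx3 (71.5 ± 6.74). Gpx1 stayed highest and Sod2 lowest in room air with each of 3 lengths.

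**Figure D3:**
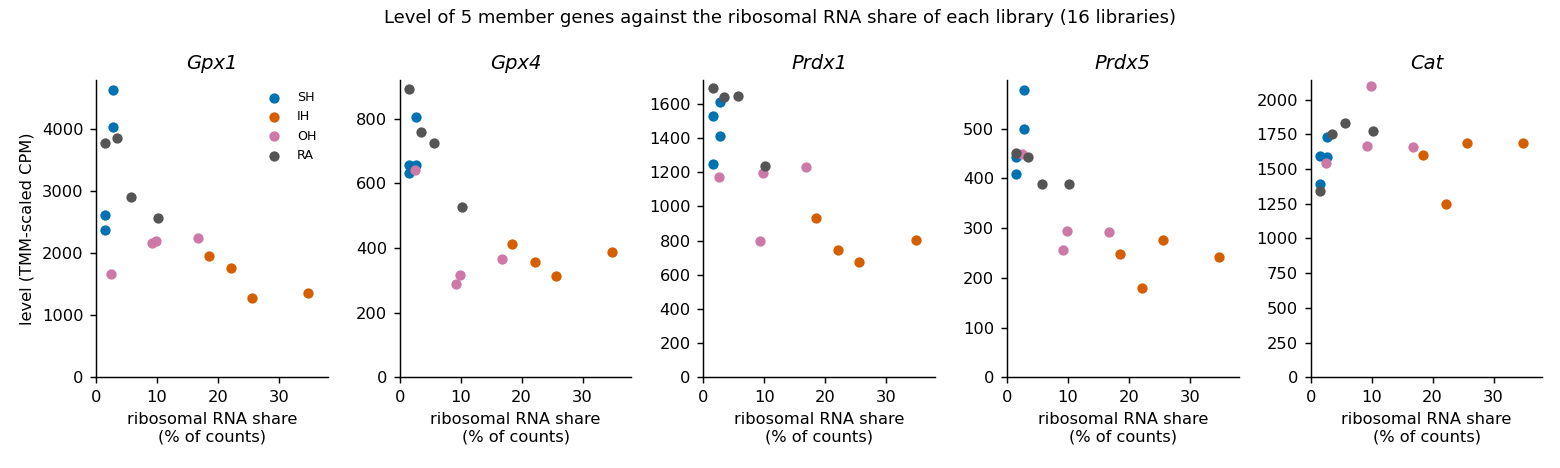
Level in TMM-scaled CPM of Gpx1, Gpx4, Prdx1, Prdx5 and Cat in each of the 16 libraries against the share of counts from ribosomal RNA, in percent, coloured by group. The intermittent libraries hold the highest shares, 18.5 to 34.8%, with Prdx1 at 674 to 930 CPM, whereas Cat lies between 1245 and 2100 CPM in libraries of all shares.

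Inside groups the relation of the levels to the ribosomal RNA share differed by gene and by group. In overlap hypoxia, replicate 2 had the lowest ribosomal RNA share, 2.54%, and the highest levels of Sod1, Sod2, Gpx4, Prdx3, Prdx5, Prdx6 and Txn2, but the lowest of Gpx1 and Cat. Overlap replicate 4 had the highest share of its group, 16.8%, and the highest levels of Gpx1 and Prdx1, but the lowest of Sod2 and Prdx6. In intermittent hypoxia, replicate 3 had the highest share, 34.8%, and the highest levels of Sod2, Cat, Prdx3 and Txn2. Intermittent replicate 4 had the lowest share of its group, 18.5%, and the highest levels of Gpx1, Gpx4, Prdx1 and Prdx6. In room air, replicate 1 had the highest share, 10.2%, and the lowest levels of Sod1, Gpx1, Gpx4, Prdx1, Prdx3 and Prdx5. Room air replicate 4 had the lowest share, 1.57%, and the highest levels of Gpx4, Prdx1 and Prdx5, but the lowest of Cat. In sustained hypoxia, replicate 4 had the highest share, 2.77%, the highest level of Gpx1 and the lowest of Sod1, Prdx3 and Txn2. Sustained replicate 1 had the lowest share, 1.55%, the highest level of Prdx3 and the lowest of Sod2 and Prdx5. With the share as a covariate edgeR called 0 of 10 in intermittent hypoxia, where the log2 fold changes were −0.82 for Prdx1 (adjusted p = 0.190), −0.77 for Gpx1 (0.343), −0.51 for Prdx5 (0.446), −0.32 for Gpx4 (0.694) and −0.32 for Prdx3 (0.639). The number of all genes called in that fit was 77, against 5404 without the covariate. In overlap hypoxia, whose shares overlap those of room air, the covariate left Gpx4 at −0.72 (edgeR adjusted p = 0.0595) and 361 genes called in all, against 916. Markers of Kupffer cells, the liver's macrophages, were also lower: 6 of 7 fell in both intermittent and overlap hypoxia, where 18.3 and 2.89% of all genes fell. Their summed level was 47.3 to 82.9 CPM in sustained, 23.5 to 50.3 CPM in intermittent and 29.6 to 34.2 CPM in overlap hypoxia, and 70.8 to 126 CPM in room air, with none at 0. Of 6 markers of sinusoidal endothelial cells, 4 fell in overlap hypoxia, and 1 fell and 1 rose in intermittent hypoxia. Erythroid markers (7 of 8 symbols found) summed to 418 to 2076 CPM in sustained hypoxia and 253 to 712 CPM in room air, and of the 5 tested none passed. Of the 5 hepatocyte markers tested, 1 fell in intermittent hypoxia and none in overlap hypoxia. The part of these cell types in the member levels was not tested, and in bulk liver fewer cells of a type and less RNA per cell cannot be told apart.

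**Figure D4:**
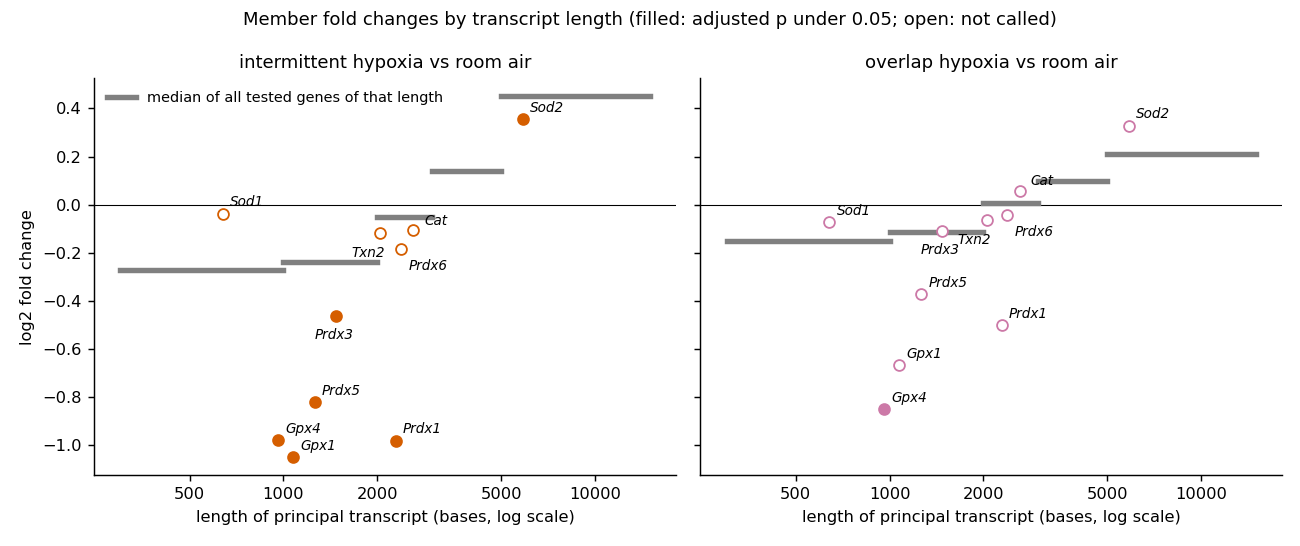
Log2 fold change against room air of each of the 10 genes in intermittent and overlap hypoxia, by length of the principal transcript in bases on a log axis; filled points had an edgeR adjusted p under 0.05 and gray bars give the median of all tested genes in each length range. Gpx1, Gpx4, Prdx1 and Prdx5 lie well below the bars in intermittent hypoxia, while Sod2 lies near the bar of the longest genes.

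Fold changes also followed transcript length across all genes. In intermittent hypoxia the median log2 fold change was −0.27 for genes under 1000 bases, −0.24 for 1000 to 2000 bases, −0.05 for 2000 to 3000 bases, 0.14 for 3000 to 5000 bases and 0.45 for genes over 5000 bases. The value of Sod2, 0.36 with 5861 bases, was under the median of its length range, and Gpx4 (959 bases), Gpx1 (1072 bases), Prdx5 (1262 bases) and Prdx1 (2294 bases) were below theirs. Prdx3 (−0.46), Prdx6 (−0.18), Txn2 (−0.12) and Cat (−0.11) were also below the medians of their ranges. Sod1 (−0.04, 641 bases) was above that of its range. With offsets for length and GC content, Gpx1 (−0.85), Gpx4 (−0.87), Prdx1 (−0.71) and Prdx5 (−0.74) still fell, with edgeR adjusted p between 0.000592 and 0.00483, and Sod2 (0.15) no longer passed (edgeR adjusted p = 0.475). In overlap hypoxia Gpx4 had −0.87 with these offsets (edgeR adjusted p = 0.00992).

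The genes that work beside the 10 were read as 7 lists of 101 genes, of which 98 were tested. None of the 98 passed in sustained hypoxia against room air by edgeR. An unadjusted p under 0.05 was found for 17 of them, and for 1672 of all 14553 genes. DESeq2 called 3 there and limma-voom 5, where 1.2 and 1.7% of all genes passed. In intermittent hypoxia 10 rose and 32 fell, where 18.9% of all genes were higher and 18.3% lower, and in overlap hypoxia 2 rose and 7 fell, where 3.41% were higher and 2.89% lower. These shares over all genes apply to each list below. With the ribosomal RNA share as covariate these counts were 0 and 1 in intermittent hypoxia and 0 and 3 in overlap hypoxia. The median log2 fold change of the 98 was −0.25 in intermittent and −0.10 in overlap hypoxia, against 0.03 over all genes in each. In the list of other scavenging enzymes, 2 of 6 fell in intermittent hypoxia and 1 rose. Prdx2, a cytosolic peroxiredoxin abundant in red cells, had 121 ± 16 CPM in intermittent and 162 ± 47.6 CPM in overlap hypoxia against 252 ± 38.4 CPM in room air (SD, n = 4 each), and fell in both (log2 fold change −1.06 and −0.64, edgeR adjusted p = 0.000155 and 0.0369). Prdx4, the peroxiredoxin of the endoplasmic reticulum, fell in intermittent hypoxia (−0.61, edgeR adjusted p = 0.000527), and Sod3, the extracellular dismutase, rose to 13.6 ± 5.20 CPM against 5.004 ± 1.53 CPM in room air (1.44, edgeR adjusted p = 0.00525).

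Of 16 thioredoxin and glutaredoxin partners, 3 fell in intermittent hypoxia and 1 rose (Sesn2, named from its call), where 37.1% of all genes passed. In overlap hypoxia edgeR, DESeq2 and limma-voom each called 0. An unadjusted edgeR p under 0.05 was found there for 2 of the 16 and for 3320 of all 14553 genes. Those that fell were the iron-sulphur cluster glutaredoxins Glrx3 (−0.94, edgeR adjusted p = 0.000345) and Glrx5 (−0.70, edgeR adjusted p = 0.00346), and Txnrd1, the cytosolic thioredoxin reductase that keeps thioredoxin able to serve Prdx1 (−0.45, edgeR adjusted p = 0.0101). Txnip, which binds and inhibits thioredoxin, had 56.2 ± 15.5 CPM in sustained, 119 ± 50.6 CPM in intermittent and 79.5 ± 19.3 CPM in overlap hypoxia against 129 ± 14.1 CPM in room air, and its log2 fold change of −1.19 in sustained hypoxia did not pass (edgeR adjusted p = 0.122). In glutathione synthesis 1 of 8 fell in intermittent hypoxia: Gss, glutathione synthetase (−0.86, edgeR adjusted p = 0.00145). Slc25a39, the mitochondrial glutathione carrier, had 0.36 (edgeR adjusted p = 0.0531), and Cth, which makes cysteine, had −0.45 in intermittent and −0.57 in overlap hypoxia (edgeR adjusted p = 0.161 and 0.168).

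NADPH restores both glutathione and thioredoxin, and of the 12 genes tested that supply it 2 fell in intermittent hypoxia and 1 rose, where 37.1% of all genes passed. Nadk2, the mitochondrial NAD kinase, had 57.6 ± 4.73 CPM in intermittent and 65.5 ± 10.6 CPM in overlap hypoxia against 108 ± 23.6 CPM in room air (SD, n = 4 each), and fell in both (−0.90 and −0.72, edgeR adjusted p = 0.000207 and 0.0129). It had 72.1 ± 11.1 CPM in sustained hypoxia, where all 4 libraries lay below room air without passing (edgeR adjusted p = 0.156). Mthfd1, a folate enzyme that yields NADPH, fell in intermittent hypoxia (−0.43, edgeR adjusted p = 0.0287), and Me3, the mitochondrial NADP malic enzyme, rose at a level under 1 CPM (1.76, edgeR adjusted p = 0.0187). Pgls, of the pentose phosphate pathway, did not pass (0.35, edgeR adjusted p = 0.0586).

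Selenoproteins and the factors that insert selenocysteine had 10 of 19 genes lower and 3 higher in intermittent hypoxia, with a median log2 fold change of −0.39. Gpx1 and Gpx4 are not in this list. Selenop, the liver-made carrier of selenium in plasma, had 2845, 1803, 2409 and 3608 CPM in intermittent hypoxia against 5410, 6492, 9363 and 6868 CPM in room air, without overlap, and fell by 1.399 ± 0.22 (SE) on the log2 scale (edgeR adjusted p = 0.000105). In overlap hypoxia it had 4420, 3496, 3729 and 5974 CPM and did not pass (−0.68, edgeR adjusted p = 0.0711). Pstk, the kinase that prepares the selenocysteine tRNA (−1.16), Selenof, of the endoplasmic reticulum (−0.93), and Msrb1, a methionine sulphoxide reductase (−0.56), fell in intermittent hypoxia with edgeR adjusted p of 6.73e-05, 5.43e-05 and 0.0017. In overlap hypoxia edgeR called 1 gene of this list, Selenof, lower (−0.46, edgeR adjusted p = 0.0494). DESeq2 and limma-voom each called 4 of the 19 lower there, where 4.83 and 5.17% of all genes were lower. With length and GC offsets edgeR called 0, with 4 at an unadjusted p under 0.05, as were 2997 of all 14553 genes. With the ribosomal RNA share as covariate it called 0, with 7 at an unadjusted p under 0.05, as were 2747 of all genes. The 3 that rose in intermittent hypoxia, named from their calls, were Secisbp2 and Sepsecs, both of the insertion machinery, and Selenon.

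In the list of oxidases that form superoxide or peroxide, 6 of 22 tested genes fell and 3 rose in intermittent hypoxia, close to the 37.1% of all genes that passed. Hao1, the peroxisomal glycolate oxidase of hepatocytes, had 108, 95.3, 110 and 88.6 CPM in intermittent hypoxia against 258, 215, 249 and 235 CPM in room air and fell (−1.25, edgeR adjusted p = 2.03e-05). Sqor, the mitochondrial sulphide oxidoreductase, also fell there (−0.96, edgeR adjusted p = 0.000548). It is counted in this list although it is not itself an oxidase of this kind. Xdh, xanthine dehydrogenase, rose in intermittent and in overlap hypoxia (0.79 and 0.41, edgeR adjusted p = 4.68e-05 and 0.0388). The intermittent and overlap libraries all lay above the room air ones for this gene. Cyba and Cybb, the membrane subunits of the phagocyte NADPH oxidase, fell in overlap hypoxia (−1.03 and −1.07, edgeR adjusted p = 0.0355 and 0.0274), and Cyba also in intermittent hypoxia (−1.11, edgeR adjusted p = 0.00400). Cybb had −0.30 in intermittent hypoxia and did not pass (edgeR adjusted p = 0.403). Of 7 Kupffer cell markers, 6 fell in each of these groups, where 18.3% (intermittent) and 2.89% (overlap) of all genes fell. The part of Kupffer cells in these values was not tested.

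Peroxisome assembly, on which the location of Cat depends, had 8 of 15 genes lower and 1 higher in intermittent hypoxia, with a median of −0.51, and 2 lower and 1 higher in overlap hypoxia. Pex13, part of the import pore, fell in both (−0.83 and −0.49, edgeR adjusted p = 0.000248 and 0.0475), and Pex3, which places membrane proteins, fell in intermittent hypoxia (−0.84, edgeR adjusted p = 0.000204). Pex6, an ATPase that recycles the import receptor, rose in both (0.58 and 0.55, edgeR adjusted p = 0.00665 and 0.0434). The level of Cat itself passed in neither.

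**Figure D5:**
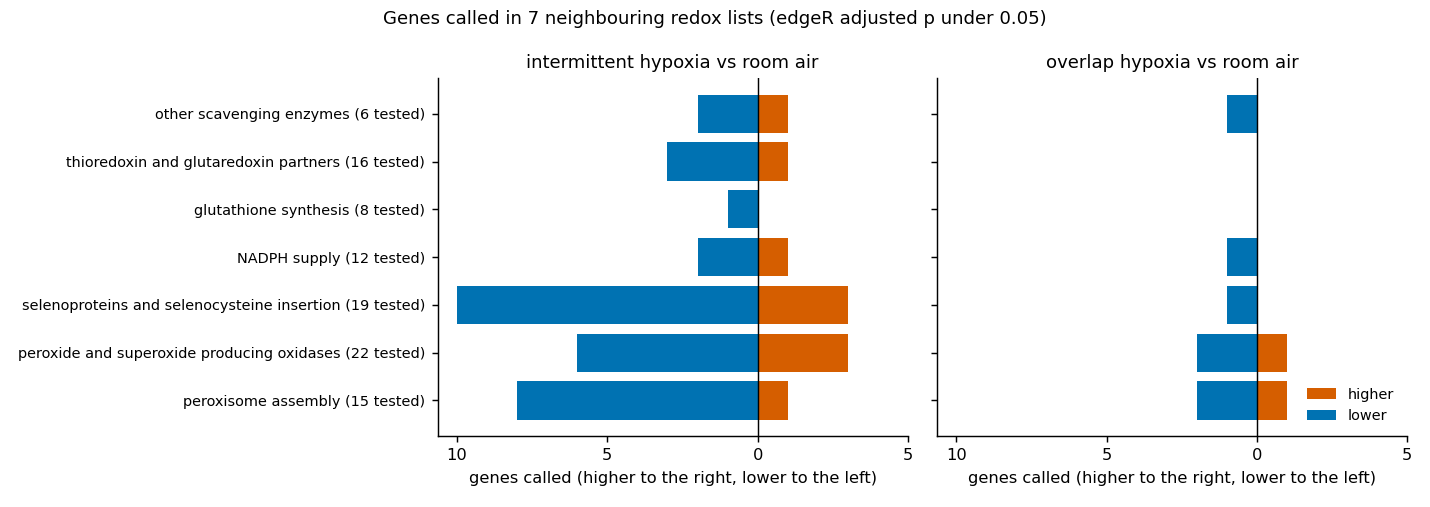
Number of genes called by edgeR at an adjusted p under 0.05 in each of the 7 neighbouring lists, in intermittent and overlap hypoxia against room air, with higher genes to the right of 0 and lower genes to the left. Selenoproteins had 10 lower and 3 higher of 19, peroxisome assembly 8 lower and 1 higher of 15, and the oxidase list 6 lower and 3 higher of 22 in intermittent hypoxia, where 37.1% of all genes passed.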

How the data were processed

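Gene-level expected counts were deposited by the authors in 1 table of the 16 libraries; Bowtie 1.3.0, RSEM and GRCm38 are named in the submitters' processing notes, and neither the annotation release nor the strand setting is stated there. RSEM divides reads shared by several genes, so genes with near copies are less certain. Values were rounded, and 55227 identifiers were given a symbol from GENCODE M21 (260 without one held at most 0.0313% of counts). Genes were kept with filterByExpr, scaled by TMM and tested with edgeR 4.0.16 (R 4.3.3; robust quasi-likelihood fit of all 16 libraries, 6 comparisons, Benjamini-Hochberg over 14553 genes, threshold 0.05). CPM values are TMM-scaled; intervals are 95%.

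DESeq2 1.42.0, limma-voom (limma 3.58.1), other scalings, no filter, the compared groups alone, the ribosomal share as covariate, length and GC offsets, a replicate block and leaving out each library were the alternatives. The 10 genes, the lists and the tests were chosen with earlier results of these data known. From each list, the 3 tested genes with the lowest p in intermittent hypoxia and the 2 in overlap hypoxia were named. A result for 1 gene that this rule names is not reported here. Libraries of a group differed beyond sampling noise, so each counted once.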

Additional observations from a re-analysis of the deposited data

Results flagged for a closer look

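In 6 of 40 combinations of gene and group, 1 of the 4 libraries stood further from the others than Dixon's 95% limit; chance gives about 5% of such groups. Sod1 was 712 CPM in intermittent hypoxia replicate 1, below the other 3. Gpx1 was 1667 CPM in overlap hypoxia replicate 2, and Prdx1 was 799 CPM in overlap hypoxia replicate 3, each below the rest of its group. Overlap replicate 3 had the lowest total count of all libraries. Gpx4 was 807 CPM in sustained hypoxia replicate 3, above the rest. Cat was 1340 CPM in room air replicate 4, and Prdx1 was 1239 CPM in room air replicate 1, both below the rest; without that room air library the fall of Prdx1 in overlap hypoxia passed (edgeR adjusted p = 0.0342).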

How the results depend on the processing

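The count of members called in intermittent hypoxia against room air stayed at 4 to 6 under every alternative except the ribosomal share as covariate, where it was 0; leaving out each library gave 4 to 6. The count in sustained against intermittent hypoxia was also 0 with the covariate, and 6 to 7 with a library left out. In overlap hypoxia against room air the count of 1 became 0 with library totals, with the compared groups alone and with the covariate. It became 2 without the filter, and 3 with DESeq2 and with limma-voom, which called 10.1 and 9.44% of all genes. Leaving out libraries gave 0 to 3. Overlap against sustained hypoxia gave 3 without the filter, 4 with DESeq2 and 4 with limma-voom, where 1.2, 6.16 and 8.41% of all genes passed. It gave 0 to 4 with a library left out. Overlap against intermittent hypoxia gave 1 without the filter and 1 with DESeq2, where 2.9 and 10.9% of all genes passed. It gave 0 to 1 with a library left out. Sod1 in intermittent hypoxia changed sign and passed with length and GC offsets, at 0.40. Other fold changes that had not passed also changed sign under scaling, limma-voom, the covariate or these offsets, among them Gpx1 (−0.12 with offsets), Prdx1 (0.06 with offsets), Cat (0.03 with library totals) and Gpx4 (0.02 with library totals) in sustained hypoxia; none of these passed. Upper-quartile scaling moved the median of all genes in intermittent hypoxia to 0.12, against 0.03 with TMM. Library totals moved the median in sustained against intermittent hypoxia to 0.20, against −0.03 with TMM, with 3196 genes higher and 1481 lower in place of 2748 and 2836; in overlap hypoxia against room air they gave 303 higher and 48 lower in place of 496 and 420. Causes were not tested.

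Same-numbered libraries were not paired by the labels, and their deviations from the group means correlated at −0.103 to 0.183 in 24 pairs (9 of 16 libraries correlated best with their own number). With a replicate block the members called were 6 in intermittent hypoxia, 2 in overlap hypoxia against room air (Gpx1 and Gpx4) and 8 in sustained against intermittent hypoxia.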
